A study of Mus musculus with 6 samples.

Results

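Heat shock proteins and the chaperones that work with them were followed in mast cells sorted from the skin of mouse embryos and adult mice. The 46 genes were taken by symbol, in 10 role groups, and 45 of them matched a gene in a count table of 47643 genes. Hspa14 was not matched by gene ID and has no value here. All 45 passed the filter on low counts, which kept 15111 genes. Poly(A) RNA of 6 libraries was sequenced, 3 for each group. Embryonic cells came from skin at E16.5, were sorted as CD45+ F4/80- CD64- ckit+ ST2+, and are called YS HE derived by the submitters, whose title speaks of hemogenic endothelium. Adult cells, of no stated age in weeks, were sorted with Fcer1+ in place of ST2+ and otherwise the same markers, and are called definitive. All mice were Cdh5CreERT2, an inducible Cre driven by an endothelial gene, and had received 4OHT (4-hydroxytamoxifen) at E7.5. The sort as described names no lineage reporter, so the cells of a library need not all descend from labelled endothelium. Skin of both groups was digested for the same time and at the same temperature. Adult skin also had its epidermis removed in an additional Dispase step. Age, gate, described origin and this step changed together and cannot be told apart. Whether replicates were separate animals is not stated. The p-values thus weigh the group difference only against the spread of these libraries within groups, which may be technical variation.

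Chaperones bind unfolded proteins and help them reach or keep their structure. HSP70 proteins bind short hydrophobic stretches in cycles of ATP hydrolysis. J-domain proteins bring them substrates and stimulate the hydrolysis, and HSP110 and BAG proteins exchange their nucleotide. HSP90 finishes kinases and steroid receptors with the help of co-chaperones, and the ring-shaped chaperonin TRiC folds actin, tubulin and other cytosolic proteins. Heat shock factor HSF1 switches on the stress-inducible members when proteins unfold, and the digestion of tissue for cell sorting is itself known to induce some of them. In mast cells HSP90 is known to stabilise Kit, the receptor for stem cell factor.

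The libraries held 34122162 to 49813523 counts in genes. Mast cell markers were high in all of them, with 12 genes summing to 124651 to 135660 CPM (the usual depth-scaled count unit, here on TMM-scaled library sizes) in embryonic and 63586 to 66450 CPM in the adult libraries, led by Hdc and Cpa3. The single markers went both ways. Of the 12, 6 were higher in the embryonic and 4 in the adult cells, beside 31.2% and 31.7% of all tested genes. Mcpt4 was 6.90-fold and Ms4a2 7.46-fold higher in adult cells, and Kit was not called. The genes behind the gates followed them, with Il1rl1 (ST2) at 1521 ± 83.1 and 887 ± 43.4 CPM and Fcer1a at 5.84 ± 1.47 and 762 ± 186 CPM (SD, n = 3). A few libraries stood apart in genes of other cells. Embryonic replicate 3 held 673 CPM of 10 keratinocyte genes, led by Krt1 and Krt10, against 70.6 and 140 CPM in the other embryonic and 35.1 to 61.5 CPM in the adult libraries. Adult replicate 3 held 118 CPM of 10 fibroblast genes, against 542 and 614 CPM in the other adult and 633 to 797 CPM in embryonic libraries. Col3a1 and Col1a2 lead that list over all libraries, but Dcn, which was higher in adult cells, was the highest of it in adult replicate 3. Of 12 macrophage and dendritic cell genes, led by Cd68 in embryonic and Lyz2 in adult libraries, the sum was 16.0 to 43.1 CPM in the embryonic and 183 to 308 CPM in the adult libraries. Erythroid genes, led over all libraries by Hbb-bs and Hbb-bt, summed to 141 to 327 CPM and 3.32 to 10.6 CPM, and endothelial genes, led by Pecam1 and Egfl7, to 41.8 to 52.1 and 10.9 to 17.3 CPM. No gene of these lists was at 0 in every library, and the embryonic globins Hbb-y and Hba-x were at 0 in all adult libraries. The part of these other cells in the chaperone differences was not tested. Results that rest on embryonic or adult replicate 3 are given with and without them. In bulk libraries fewer cells that express a gene and less RNA per cell cannot be told apart.

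The comparison asked how chaperone expression differed between embryonic and adult skin mast cells. The 2 groups differed in which of the listed chaperones were higher. All 8 TRiC subunits and 5 of 6 HSP90 co-chaperones were higher in embryonic cells. All 8 listed J-domain proteins were higher in adult cells, but 32 further tested J-domain genes went both ways, 15 toward embryonic and 6 toward adult. The members and lists were chosen with earlier results of these data known. In total 18 members were higher in the embryonic cells, 18 in the adult cells, and 9 did not pass the test (edgeR quasi-likelihood, Benjamini-Hochberg adjusted p under 0.05 over all genes). These are 40% of the 45 in each direction, beside 31.2% and 31.7% of all tested genes. Together 80.0% were called, beside 63.0% of all genes. Among genes with a mean of at least 10 CPM, where calls are more frequent, 72.3% were called, against 81.6% of the 38 members at that level. At least 2-fold differences were found for 7 members toward embryonic (15.6%, beside 17.2% of all genes) and 12 toward adult (26.7%, beside 20.8%). The median log2 fold change of the members, embryonic over adult, was -0.07, near that of all genes at -0.02. The summed level of all 45 was 8309 ± 173 CPM in the embryonic and 8566 ± 954 CPM in the adult libraries (SD, n = 3), and the groups overlap. Groups did not overlap in 37 of the 45 members (82.2%), beside 70.0% of all tested genes.

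**Figure D1:**
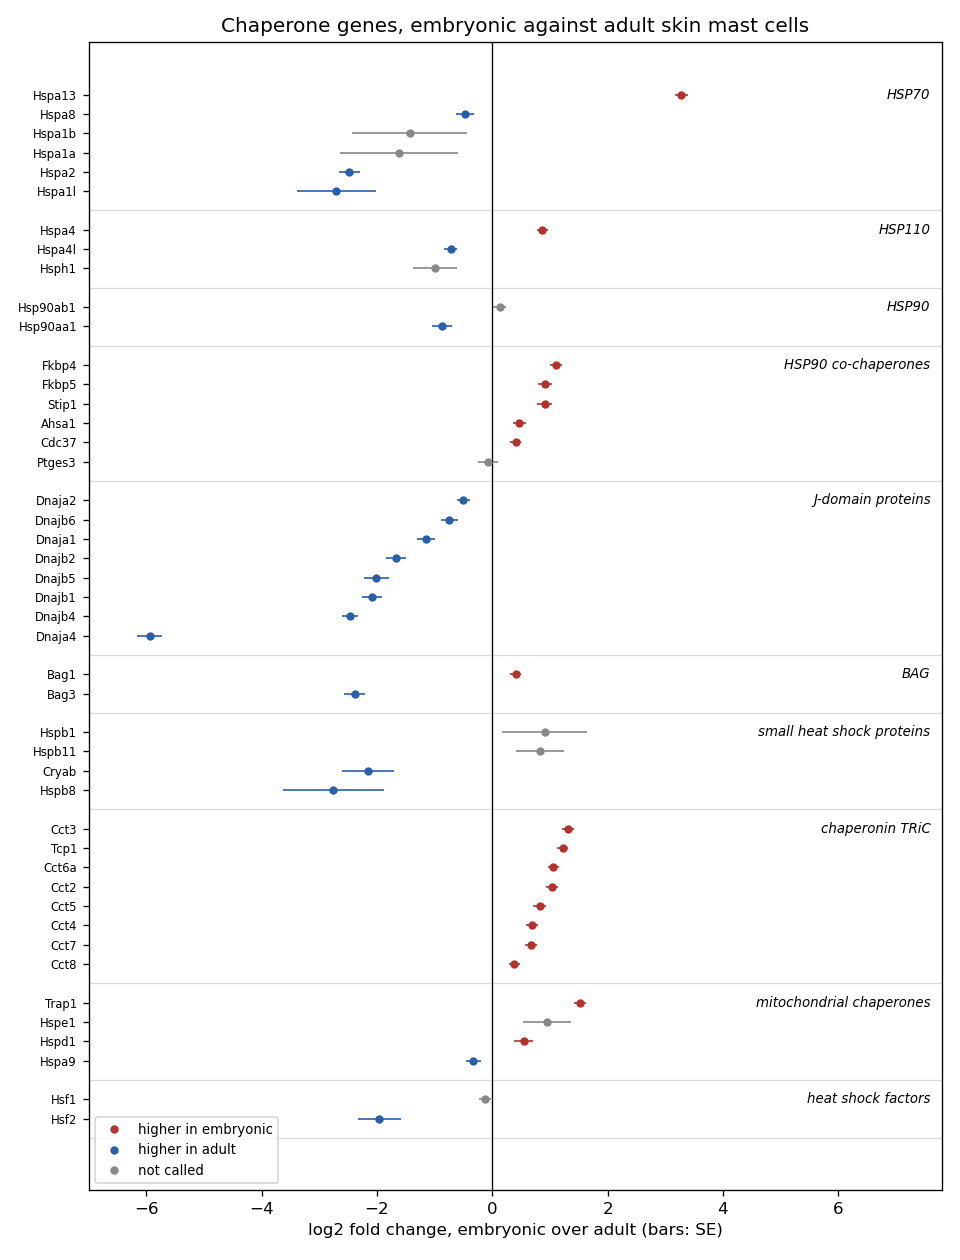
Log2 fold change (embryonic over adult, x axis) with its standard error for the 45 members, in role groups; red and blue points passed the test and grey points did not. All 8 J-domain proteins lie left of 0 and all 8 TRiC subunits right of it, while HSP70, BAG and mitochondrial chaperones have members on both sides.

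Among HSP70 proteins the microsomal form was higher in embryonic cells, and the constitutive and testis-type forms were higher in adult cells. Hspa13 (chr16:75755190-75766821 in GRCm38), a microsome-associated HSP70 relative, was the member with the largest embryonic excess. It was at 764, 818 and 941 CPM in embryonic libraries and at 90.0, 84.6 and 85.2 CPM in the adult libraries. Every embryonic library was far above every adult one, and the fitted difference was 9.71-fold (log2 3.28 ± 0.12 SE, edgeR adjusted p = 2.12e-08). Per kilobase of exon Hspa13 had the most counted reads of the HSP70 members in embryonic libraries, at 143 CPM per kb, against 96.3 for Hspa8, and in adult libraries it was at 14.7 CPM per kb against 133 for Hspa8. This order holds for counted reads alone, since reads aligning to several places were left out and Hspa8, unlike Hspa13, shares sequence with other genes. Hspa2, best known from spermatogenesis, was at 38.3, 35.9 and 27.7 CPM in the embryonic and 146, 212 and 210 CPM in the adult libraries. It was 5.58-fold higher in adult cells (adjusted p = 3.19e-06). Hspa1l, another testis-type HSP70, was scarce, with 2, 5 and 3 counts in embryonic and 14, 30 and 24 counts in adult libraries. Its fitted difference was 6.52-fold toward adult (adjusted p = 0.00629), and Gm10501 covers 71.9% of its exon bases, where reads were not counted.

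Hspa8, the constitutive cytosolic HSC70, was at 334, 376 and 490 CPM in the embryonic and 511, 654 and 499 CPM in the adult libraries. The groups do not overlap, but embryonic replicate 3 lay just below adult replicate 3. The difference was 1.39-fold toward adult (adjusted p = 0.0281). It was lost without embryonic replicate 1 (adjusted p = 0.119), embryonic replicate 2 (0.115) or adult replicate 2 (0.105). Of its 50-base transcript words 39.4% also occur in transcripts of other genes, mostly of Gm15459, so part of its reads may have been left out as aligning to several places.

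The stress-inducible HSP70 genes Hspa1a and Hspa1b varied widely within groups. Hspa1b (chr17:34956436-34959238) was at 25.5, 105 and 344 CPM in the embryonic and 475, 584 and 223 CPM in the adult libraries. Hspa1a (chr17:34969190-34972156) was at 11.8, 55.4 and 172 CPM and at 254, 358 and 126 CPM. For both genes embryonic replicate 3 lay above adult replicate 3, so the groups overlap. The embryonic libraries spanned 13.5-fold for Hspa1b and 14.6-fold for Hspa1a, a wider range than in 98.7% and 98.8% of the tested genes. The fitted differences were 2.70-fold toward adult for Hspa1b (95% interval 0.446 to 16.3, adjusted p = 0.269) and 3.08-fold for Hspa1a (0.488 to 19.4, adjusted p = 0.227). Neither passed the test in any of 16 other settings, and the intervals do not show that the groups are alike. Without embryonic replicate 3 the log2 fold changes went from -1.43 to -2.69 for Hspa1b and from -1.62 to -2.85 for Hspa1a (adjusted p = 0.0795 and 0.0824). Without that library and adult replicate 3 they were -3.02 and -3.20, and without embryonic replicate 1 they were -0.90 and -1.09. The 2 genes are near copies: 62.3% of the 50-base words of Hspa1b also occur in Hspa1a, and reads that fit both were not counted. The ratio of Hspa1a to Hspa1b per kilobase was 0.439 to 0.579 over the 6 libraries, a narrower range than that of either gene.

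Hspa1a and Hspa1b also differ little in the bases before their start, with 247 of 250 identical in an alignment. The word that heat shock factors bind is built of GAA units in alternating orientation, and the 8-base words GAANNTTC and TTCNNGAA, which read the same on both strands, were searched in RefSeq promoter windows (GRCm38.p6, 250 bases before to 50 after each start). They were found in 17 of 38 listed members with a window (44.7%, Hspa14 being among the 38) and in 17.0% of 27025 genes. Hspa8, Hspa13, Hspa9, Hsp90aa1, Hsp90ab1, Hsf1, Cct4 and Cryab had no window and were not searched. The longer form with 3 such units in a row, 13 bases that contain the shorter words, was found in 4 of 38 members and in 0.662% of all genes. The 4 are Dnajb6, Hsph1, where it lies after the start, and Hspd1 and Hspe1, which share 1 site that is counted for both. Hspa1a and Hspa1b, as near copies, are likewise both among the 17. The short words were found for 6 of 14 members higher in adult cells (42.9%), for 6 of 16 higher in embryonic cells (37.5%), and for 5 of 7 that did not pass the test. The stretches below are shown for the members of widest spread among embryonic libraries, Hspa1a, Hspa1b and Hspb1, and for the J-domain gene of largest difference, Dnaja4, with the words in capitals.
Hspa1a, chr17:34972157-34972406, minus strand: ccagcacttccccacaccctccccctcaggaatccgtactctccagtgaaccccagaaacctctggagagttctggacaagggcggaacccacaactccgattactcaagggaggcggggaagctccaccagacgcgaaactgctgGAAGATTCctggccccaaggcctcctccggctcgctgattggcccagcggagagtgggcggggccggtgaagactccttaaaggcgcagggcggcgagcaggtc
Hspa1b, chr17:34959239-34959488, minus strand: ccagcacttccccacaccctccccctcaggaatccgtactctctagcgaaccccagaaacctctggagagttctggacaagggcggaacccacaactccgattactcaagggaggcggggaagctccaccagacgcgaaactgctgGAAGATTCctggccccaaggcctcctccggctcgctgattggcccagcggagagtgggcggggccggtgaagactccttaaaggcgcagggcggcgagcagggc
Hspb1, chr5:135887669-135887918, plus strand: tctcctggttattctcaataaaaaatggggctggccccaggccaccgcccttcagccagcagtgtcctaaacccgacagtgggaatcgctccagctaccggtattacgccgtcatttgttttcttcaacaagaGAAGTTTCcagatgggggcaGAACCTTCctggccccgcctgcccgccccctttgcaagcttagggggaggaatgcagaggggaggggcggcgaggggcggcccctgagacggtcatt
Dnaja4, chr9:54699414-54699513, plus strand: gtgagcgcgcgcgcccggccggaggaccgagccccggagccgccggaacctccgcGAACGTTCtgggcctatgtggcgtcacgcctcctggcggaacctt
The word starts 104 bases before the start in both Hspa1 genes, and 117 and 97 bases before it in Hspb1. In Dnaja4 it starts 90 bases before 1 of the RefSeq starts. A second Dnaja4 word, 52 bases before the same start, is cut by the end of the stretch, where an exon begins, and is left in lower case. Another RefSeq start of Dnaja4 lies before this stretch and has no word in its window. Short sites follow for members that share a site or were called in either direction. Hspd1 and Hspe1, the mitochondrial chaperonin pair, lie on opposite strands. Their shared site with 3 overlapping words lies between the RefSeq start of Hspe1 and 1 of the RefSeq starts of Hspd1. Another RefSeq start of Hspd1 has no word in its window, and the site lies after that start. Fkbp4 and Cct5 were higher in embryonic, and Dnaja1 and Dnajb6 in adult cells.
Hspe1 and Hspd1, chr1:55088053-55088082, plus strand: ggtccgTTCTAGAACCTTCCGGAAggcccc
Dnajb6, chr5:29735844-29735872, plus strand: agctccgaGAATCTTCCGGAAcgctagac
Dnaja1, chr4:40722333-40722362, plus strand: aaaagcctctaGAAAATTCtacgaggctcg
Fkbp4, chr6:128438789-128438818, minus strand: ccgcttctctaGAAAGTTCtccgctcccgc
Cct5, chr15:31601862-31601891, minus strand: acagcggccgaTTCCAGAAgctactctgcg
A matching word is a description of the sequence and was not tested as a site of binding.

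HSP110 proteins, the nucleotide exchange factors of HSP70, also split. Hspa4 was at 486, 503 and 475 CPM in the embryonic and 255, 268 and 278 CPM in the adult libraries, and was fitted as 1.83-fold higher in embryonic cells (adjusted p = 2.12e-05). Hspa4l, its close relative, was at 75.9, 71.6 and 63.4 CPM and at 106, 124 and 118 CPM, 1.65-fold higher in adult cells (adjusted p = 0.000244). In each case the groups were separate and the libraries of a group lay close together. Hsph1, the heat-inducible HSP110, was singled out after its values were seen. It was at 132, 128 and 175 CPM in the embryonic and 306, 417 and 144 CPM in the adult libraries, and adult replicate 3 lay within the embryonic range. It did not pass the test (toward adult with a 95% interval of 1.05-fold to 3.81-fold, adjusted p = 0.0608), but did so without adult replicate 3 (log2 -1.32, adjusted p = 0.00019) and with DESeq2 (adjusted p = 0.0283).

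**Figure D2:**
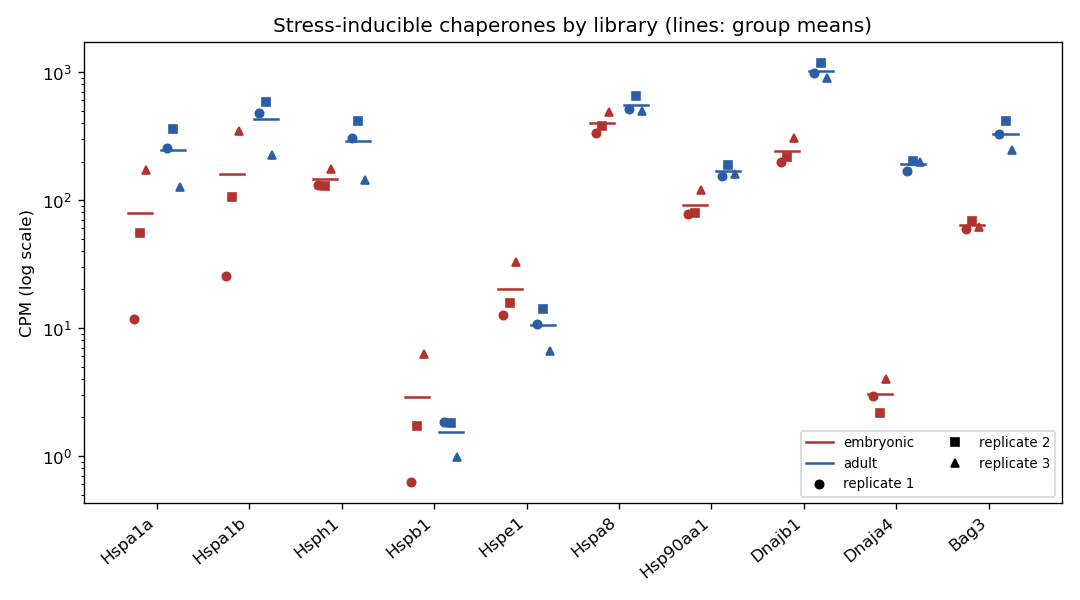
CPM (log scale) of 10 chaperones named for stress induction or spread, by library; red is embryonic, blue adult, the symbol gives the replicate number and lines are group means. Hspa1b spans 25.5 to 344 CPM in embryonic libraries and overlaps the adult ones, whereas the groups are separate for Dnajb1, Dnaja4 and Bag3.

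HSP90 itself differed by isoform. Hsp90ab1, the constitutive cytosolic form, was the most abundant member per kilobase, at 532 CPM per kb in embryonic and 487 in adult libraries. It was at 1616, 1597 and 1571 CPM in the embryonic and 1542, 1570 and 1268 CPM in the adult libraries and did not pass the test (1.09-fold toward embryonic, 95% interval 0.921 to 1.29, adjusted p = 0.334). Hsp90aa1, the inducible form, was at 77.5, 78.8 and 119 CPM in the embryonic and 155, 189 and 160 CPM in the adult libraries. Its embryonic replicate 3 was the highest of that group but below every adult library, and it was 1.83-fold higher in adult cells (adjusted p = 0.00193). Per kilobase the ratio of Hsp90aa1 to Hsp90ab1 was 0.0366, 0.0377 and 0.0580 in embryonic and 0.0767, 0.0916 and 0.0963 in adult libraries. The constitutive form thus dominated in all 6 libraries, although 47.5% of the 50-base words of Hsp90aa1 occur in other transcripts, mostly Gm12346, and its level may be understated.

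HSP90 co-chaperones were mostly higher in embryonic cells, with 5 of 6 called in that direction and a median log2 fold change of 0.69. Stip1 (HOP), which hands clients from HSP70 to HSP90, was at 270, 287 and 214 CPM in the embryonic and 137, 149 and 124 CPM in the adult libraries, and was fitted as 1.88-fold higher in embryonic cells (adjusted p = 0.000151). Fkbp4 and Fkbp5, immunophilins of steroid receptor complexes, were 2.15-fold and 1.89-fold higher in embryonic cells (adjusted p = 1.17e-05 and 0.000103). Fkbp4 was at 151, 133 and 121 CPM against 63.9, 61.4 and 62.9 CPM, with both groups tight. Fkbp5 was at 69.3, 58.4 and 64.3 CPM against 32.3, 30.8 and 38.6 CPM. Ahsa1, which stimulates the ATPase of HSP90, and Cdc37, which brings kinases to it, were 1.39-fold and 1.33-fold higher in embryonic cells. Ptges3 (p23), which stabilises the closed form, was at 17.4 ± 1.95 and 18.3 ± 4.05 CPM (SD, n = 3) and was not called (adjusted p = 0.730).

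All 8 J-domain proteins of the list were higher in adult cells, 6 of them at least 2-fold. Their summed level was 537 to 653 CPM in the embryonic and 1919 to 2295 CPM in the adult libraries. Dnaja4 (chr9:54698873-54716315), a class A co-chaperone, had the largest difference of any member. It was at 2.96, 2.18 and 4.01 CPM in the embryonic and 167, 202 and 200 CPM in the adult libraries, and was fitted as 61.6-fold higher in adult cells (log2 -5.94 ± 0.22 SE, adjusted p = 5.67e-08). Wdr61 covers 44.1% of its exon bases, where reads were not counted, so its level rests on the remainder. Dnajb1, the main HSP40 partner of inducible HSP70, was at 200, 217 and 303 CPM in the embryonic and 986, 1170 and 906 CPM in the adult libraries. It was 4.25-fold higher in adult cells (adjusted p = 6.42e-06) and, at 451 CPM per kb, the second most abundant member there per kilobase. Dnajb4 was at 54.0, 49.0 and 50.3 CPM and at 229, 317 and 303 CPM, 5.53-fold higher (adjusted p = 2.88e-07). The other 5, Dnaja1, Dnaja2, Dnajb2, Dnajb5 and Dnajb6, were 1.41-fold to 4.03-fold higher in adult cells, with adjusted p from 2.34e-05 to 0.00253. In the 8 genes every adult library was above every embryonic one, and in 70.0% of all tested genes the groups did not overlap in either direction.

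J-domain genes outside the list, looked at after the values above were seen, went both ways. Of 32 further tested genes with a Dnaja, Dnajb or Dnajc symbol, 15 were higher in the embryonic and 6 in the adult cells, beside 31.2% and 31.7% of all tested genes, and the median log2 fold change was 0.26. The difference from the 8 listed genes was not tested. Dnajb11, which works in the endoplasmic reticulum, was among the 15, and Dnajb9, also of that compartment, among the 6, at 5.37-fold higher in adult cells. Dnajb13 had the largest difference of the 6, at 10.2-fold.

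BAG proteins release substrates from HSP70, and the 2 members went opposite ways. Bag3, a stress-induced factor of selective autophagy, was at 59.8, 68.0 and 62.0 CPM in the embryonic and 326, 418 and 248 CPM in the adult libraries. It was 5.23-fold higher in adult cells (adjusted p = 4.13e-06), and the lowest adult library was far above the highest embryonic one. Bag1, linked to proteasomal degradation, was at 150, 140 and 127 CPM and at 106, 105 and 104 CPM, 1.32-fold higher in embryonic cells (adjusted p = 0.00404). The groups of Bag1 were separate as well.

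Small heat shock proteins, which hold unfolded proteins without ATP, were scarce, with the 4 members summing to 3.76 to 9.58 CPM. Hspb1 (HSP27) was at 0.623, 1.73 and 6.32 CPM in the embryonic and 1.85, 1.80 and 0.974 CPM in the adult libraries. Only embryonic replicate 3 was high, and the keratinocyte genes stood at 70.6, 140 and 673 CPM in the same embryonic libraries. The part of other cells in this value was not tested, and 50.1% of its 50-base words also occur in other transcripts, mostly of Hsp25-ps1. Hspb1 did not pass the test (1.87-fold toward embryonic, 95% interval 0.572 to 6.14, adjusted p = 0.316), and the direction turned without embryonic replicate 3 (log2 -0.37, adjusted p = 0.574). Cryab (alpha B-crystallin) was at 0.494, 0.453 and 0.522 CPM in the embryonic and 2.55, 2.89 and 1.16 CPM in the adult libraries, and was fitted as 4.47-fold higher in adult cells (adjusted p = 0.00208). Hspb8, the partner of BAG3, had 10, 7 and 13 counts in embryonic and 106, 105 and 5 counts in adult libraries. It was fitted as 6.77-fold higher in adult cells (adjusted p = 0.0216), and as 9.84-fold higher without adult replicate 3 (adjusted p = 0.000176). The call was lost in 8 of 15 settings, among them each that left out 1 of the other 5 libraries, and adult replicate 3, which is also lowest in fibroblast genes, lay below all embryonic libraries. The part of fibroblasts in it was not tested. Hspb11, an intraflagellar transport protein despite its name, was at 2.27 ± 0.300 and 1.28 ± 0.596 CPM (SD, n = 3) and was not called (adjusted p = 0.106), but was called without adult replicate 3 (0.0312).

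All 8 TRiC subunits were higher in embryonic cells, by 1.30-fold to 2.48-fold, and their sum was 2051 to 2411 CPM against 1218 to 1238 CPM. Cct3 (chr3:88297116-88321767) had the largest difference, with 422, 411 and 363 CPM in the embryonic and 170, 151 and 162 CPM in the adult libraries, 2.48-fold (adjusted p = 2.88e-06). Tcp1, the alpha subunit, was at 224, 211 and 211 CPM and at 89.6, 89.8 and 98.2 CPM, 2.33-fold higher (adjusted p = 2.36e-06). Cct6a was at 324, 301 and 272 CPM and at 138, 147 and 146 CPM, 2.08-fold higher (adjusted p = 1.06e-05). Cct8, the theta subunit, had the smallest difference, at 302, 299 and 263 CPM against 224, 228 and 211 CPM (1.30-fold, adjusted p = 0.00622). Per kilobase Cct5 was the most abundant subunit in embryonic libraries, at 107 CPM per kb, and Cct8 in adult libraries, at 71.6 against 60.3 for Cct5. Cct5 was 1.77-fold higher in embryonic cells (adjusted p = 0.000131). No TRiC gene had overlapping groups, and neither did 70.0% of all tested genes. In 7 of the 8 TRiC genes embryonic replicate 3 was the lowest of its group.

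The complex holds its subunits in equal copies, and the proportions of their messages per kilobase differed between groups. Relative to the mean of the 8 subunits per kilobase, Cct8 was at 1.24, 1.29 and 1.28 in embryonic and 1.77, 1.82 and 1.67 in adult libraries. Cct3 was at 0.840, 0.857 and 0.856 and at 0.650, 0.587 and 0.618, and Tcp1 at 0.565, 0.557 and 0.631 and at 0.434, 0.441 and 0.476. These proportions use the full exon length of each gene, including rarely used exons, so they do not show how level the subunits were with each other. Other genes also cover 16.9% of the exon bases of Tcp1 and 6.22% of those of Cct8, where reads were not counted. The adult libraries were thus all higher in the Cct8 share and all lower in the Cct3 and Tcp1 shares than every embryonic library.

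**Figure D3:**
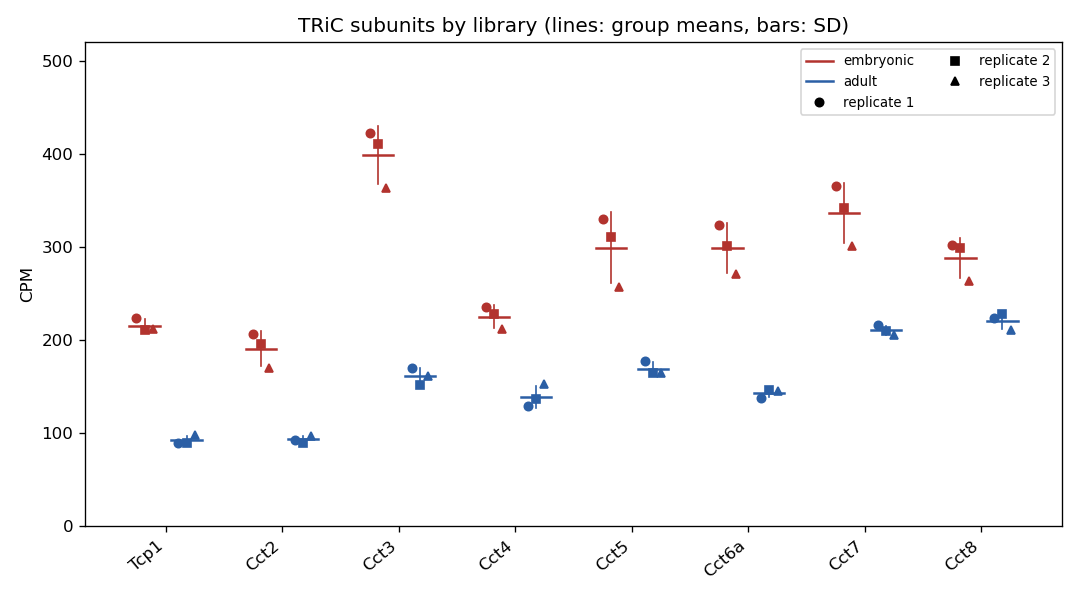
CPM of the 8 TRiC subunits by library, with group means (horizontal lines) and SD (vertical lines); red is embryonic and blue adult. Every embryonic point lies above every adult point of the same gene, with the widest gap for Cct3 and the narrowest for Cct8.

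Mitochondrial chaperones went both ways. Trap1, the mitochondrial HSP90, was at 149, 146 and 126 CPM in the embryonic and 46.8, 52.2 and 47.9 CPM in the adult libraries, and was fitted as 2.87-fold higher in embryonic cells (adjusted p = 1.29e-06). Hspd1 (HSP60) was at 90.1, 85.4 and 80.7 CPM and at 55.4, 75.0 and 45.0 CPM, 1.46-fold higher in embryonic cells (adjusted p = 0.0185). The call was lost without embryonic replicate 1 (adjusted p = 0.0519) or adult replicate 1 (0.0684), and 42.1% of its 50-base words occur in other transcripts, mostly of Hspd1-ps3. Hspe1 (HSP10), its co-chaperonin, was at 12.6, 15.6 and 32.6 CPM and at 10.8, 14.2 and 6.63 CPM and was not called (1.92-fold toward embryonic, adjusted p = 0.0874). Its fold was 2.32 without embryonic replicate 1, where it passed (adjusted p = 0.0388), as it did with DESeq2 (0.00693), and its log2 fold change fell from 0.94 to 0.18 without both replicates 3. Hspa9 (mortalin), the mitochondrial HSP70, was the most abundant of the 4 per kilobase, and was at 335, 371 and 266 CPM and at 389, 410 and 422 CPM. It was 1.26-fold higher in adult cells (adjusted p = 0.0439), a call kept in 5 of 16 settings.

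The heat shock factors differed from each other. Hsf1, the master regulator of the heat shock response, was at 40.8, 37.3 and 39.9 CPM in the embryonic and 43.3, 46.5 and 39.2 CPM in the adult libraries. The groups overlap, and Hsf1 did not pass the test (1.09-fold toward adult, 95% interval 0.926 to 1.29, adjusted p = 0.315). Hsf2, a developmental heat shock factor, was at 0.494, 0.708 and 0.668 CPM and at 2.25, 2.33 and 2.68 CPM, 3.88-fold higher in adult cells (adjusted p = 0.00104). HSF1 is controlled largely at the level of its protein, which was not measured.

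**Figure D4:**
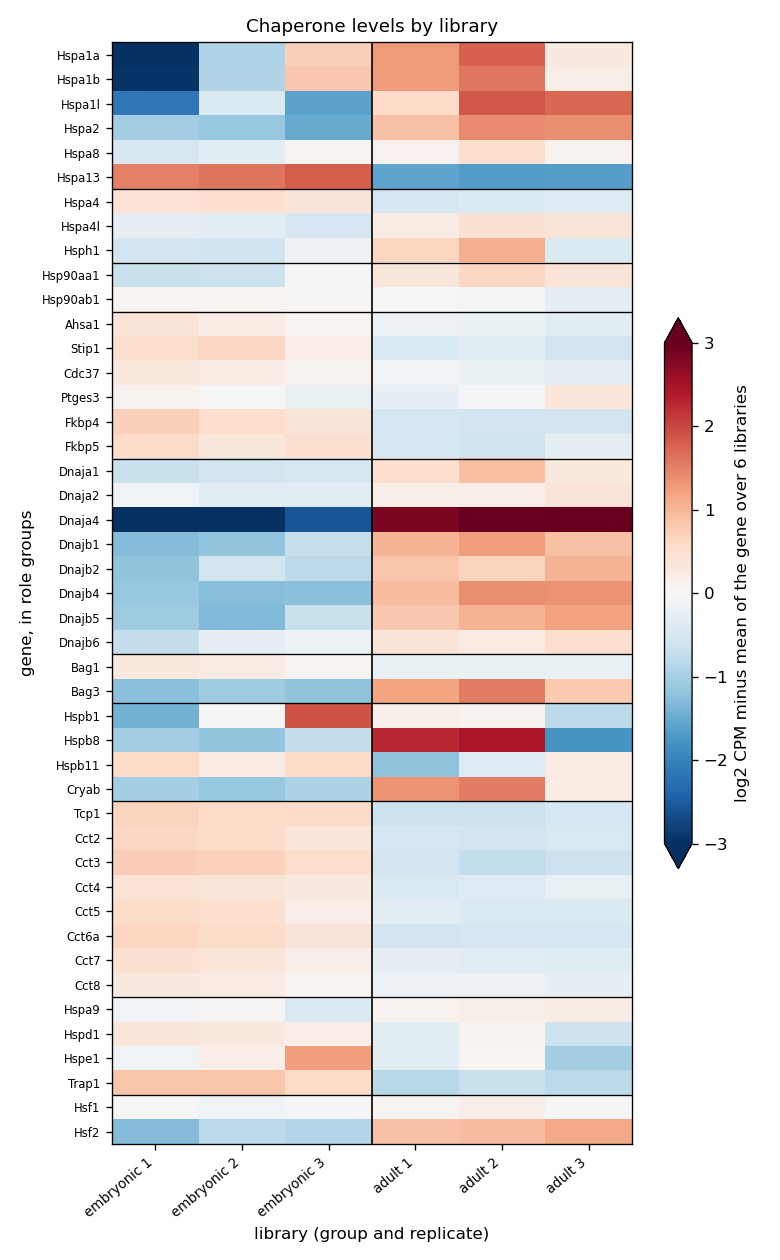
Log2 CPM of the 45 members minus the mean of each gene over the 6 libraries, in role groups separated by lines; red is above and blue below the mean of the gene, with colours capped at 3. TRiC is red in embryonic libraries, the J-domain block is red in adult libraries, and Hspa1a and Hspa1b are lowest in embryonic replicate 1 and highest in adult replicate 2.

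Embryonic replicate 3 was the highest embryonic library and adult replicate 3 the lowest adult library in 10 of 45 members (22.2%), beside 12.4% of all tested genes, an order looked for after the values were seen. The 10 are Hspa1a, Hspa1b, Hspa8, Hsph1, Hspb1, Hspe1, Dnaja1, Dnajb1, Cryab and Hspb8.

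Immediate early genes, which are known to respond to tissue digestion, did not follow Hspa1a and Hspa1b in every library. The 14 genes, led over all libraries by Nr4a1 and Dusp1, summed to 15933, 18864 and 31386 CPM in the embryonic and 41043, 49604 and 54575 CPM in the adult libraries. Hspa1a and Hspa1b together were at 37.3, 161 and 517 CPM and at 729, 942 and 349 CPM. Embryonic replicate 3 was thus highest of its group in both sums, while adult replicate 3 was highest in the sum of the immediate early genes and lowest in that of the 2 HSP70 genes. Within the adult group Egr1, Junb, Ier2 and Btg2 were highest in replicate 2, and the other listed genes in replicate 3. Btg2 was lowest in adult replicate 3, at 37.7 CPM. Of the 14 genes 9 were higher in the adult (64.3%) and 1 in the embryonic cells (7.14%), beside 31.7% and 31.2% of all tested genes. The part of tissue handling in the chaperone differences was not tested.

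**Figure D5:**
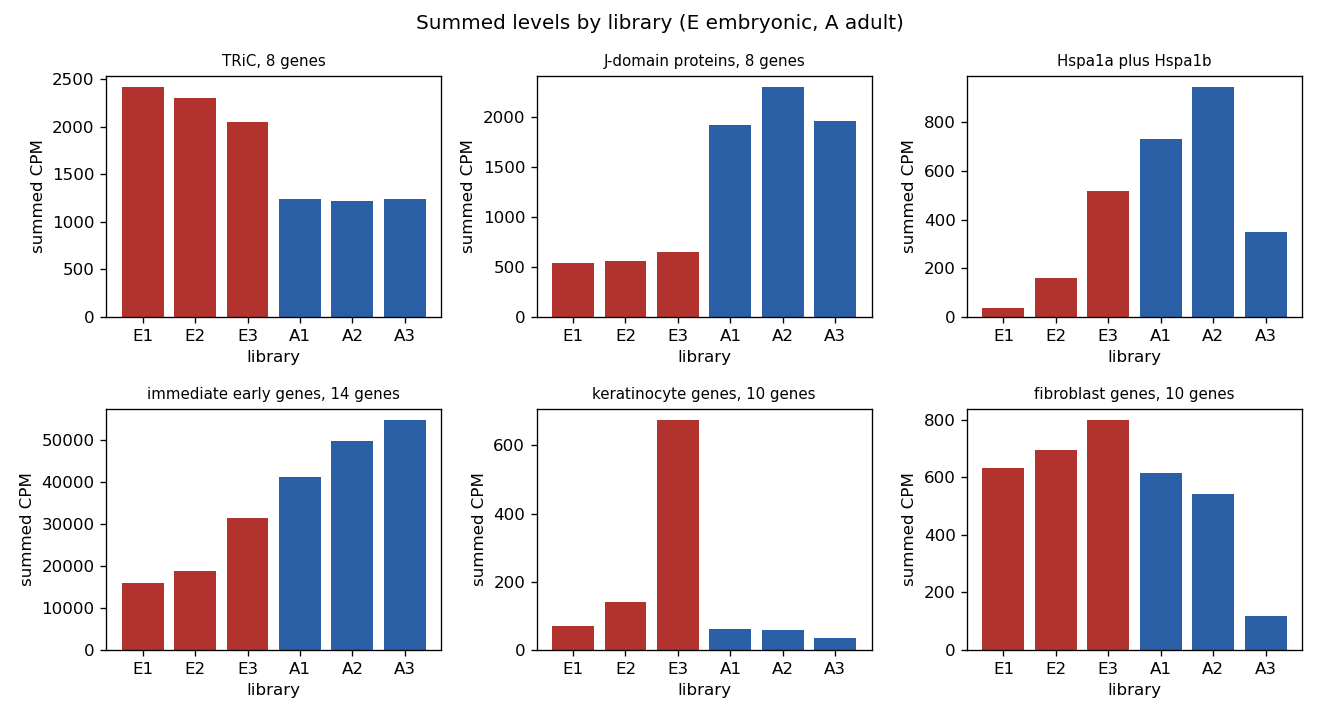
Summed CPM by library (E embryonic, A adult) for 2 role groups, the inducible HSP70 genes and 3 lists of other genes. TRiC and J-domain sums separate the groups, whereas the sum of Hspa1a and Hspa1b ranges from 37.3 to 517 CPM in embryonic libraries and keratinocyte genes reach 673 CPM in E3.

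The wider chaperone network was read from 78 further genes. Some are J-domain genes also counted above, among them Dnajb9 and Dnajc21, so both counts share genes. Of the 78 genes 74 were tested. Of these, 35 were higher in the embryonic (47.3%) and 8 in the adult cells (10.8%), beside 31.2% and 31.7% of all tested genes, and the median log2 fold change was 0.25. Prefoldin, which delivers actin and tubulin to the chaperonin, was listed with other TRiC cofactors. Of these 15 genes 4 were higher in embryonic cells (26.7%, below the share of all genes), and the other 11 did not pass the test. Pfdn1 was 2.01-fold higher in embryonic cells, and Pfdn6 was at 20.8 ± 2.58 against 13.9 ± 0.566 CPM. Of 18 other HSP90 co-chaperones 11 were higher in the embryonic and 3 in the adult cells. Ruvbl2 and Rpap3, of the R2TP complex, were 1.97-fold and 2.04-fold higher in embryonic cells, and Cdc37l1 and Fnip1 2.76-fold and 1.94-fold higher in adult cells. Of 21 other HSP70 cofactors 10 were higher in the embryonic and 3 in the adult cells. Bag2, an inhibitor of the ubiquitin ligase CHIP, was at 12.9 ± 2.08 against 2.01 ± 0.271 CPM and 6.37-fold higher in embryonic cells, and Hspa12b, an HSP70 relative known from endothelium, was at 4.60 ± 0.686 against 0.211 ± 0.137 CPM. Dnajb9 and Dnajc21 were 5.37-fold and 3.15-fold higher in adult cells. Among 11 genes of mitochondrial folding and import 6 were higher in embryonic cells, Clpp 1.79-fold and Timm44 1.53-fold, and 5 did not pass the test. Among 9 regulators and other stress targets Vcp, an unfolding ATPase, was 1.60-fold higher in embryonic cells and Chac1, of glutathione breakdown, was at 7.05 ± 5.75 against 0.310 ± 0.0857 CPM. Ubb, a ubiquitin gene also known to respond to heat shock, was at 309 ± 31.9 against 538 ± 66.7 CPM (SD, n = 3) and 1.74-fold higher in adult cells (adjusted p = 0.000283).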

How the data were processed

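Poly(A) RNA of sorted skin mast cells was made into cDNA with SMART-Seq v4 and into libraries with Nextera XT, per the labels' protocols, so reads carry neither strand nor molecular identifiers. The deposited values are raw counts per gene, made by the authors with featureCounts 1.5.0-p1 over GENCODE M9 exons without strand, leaving out reads that align to several places or fall on several genes, per the file headers. STAR, edgeR and the build GRCm38 (mm10) are named in the submitters' processing notes. Gene symbols were matched by ID to GENCODE M21 of the same assembly for 47224 of 47643 genes. The members and lists were chosen with earlier results of these data known.

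Counts of the 6 libraries (34122162 to 49813523 in all) were filtered with filterByExpr, scaled by TMM and tested with edgeR 4.0.16 (robust quasi-likelihood test, R 4.3.3), with Benjamini-Hochberg adjustment over 15111 genes at 0.05; the code was tested on simulated data. A count of 3, the least taken as detected, was 0.0603 to 0.0850 CPM, which covers counting error only. Replicates differed by more than sampling noise (chi-square per degree of freedom 37.8 to 99.2). DESeq2 1.42.0, limma 3.58.1 voom, other scalings, filters and thresholds, a replicate block and leaving out libraries were alternatives. Named in each role group were the member with the highest mean CPM per kilobase and the 3 called members of smallest adjusted p in each direction, always Hspa1a, Hspa1b, Hspa8, Hsp90aa1, Hsp90ab1, Hspb1, Hsf1 and Hsf2, and in each wider list the 2 of smallest adjusted p in each direction. A gene that this rule names is not reported here. Other members given by value were singled out after their values were seen.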

Additional observations from a re-analysis of the deposited data

How the results depend on the processing

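Over 16 other settings, 32 of the 36 called members were called in every setting in which they were tested (Hspa1l and Hspb8 were not tested with a minimum of 1 CPM in 3 libraries), and Hspa8, Hspb8, Hspa9 and Hspd1 lost the call in some. Of the 9 members not called, 6 were called in none, and Hsph1, Hspb11 and Hspe1 in some. The counts of 8 TRiC subunits, 8 J-domain proteins and 5 HSP90 co-chaperones held in all settings. The median log2 fold change of the members was 0.10 with a minimum of 1 CPM in 3 libraries, against -0.07, a setting that tests fewer genes. Hspb1 ranged from -0.37 to 1.41 on the log2 scale as 1 library at a time was left out, the negative value without embryonic replicate 3, and turned to -0.65 without both replicates 3, an alternative chosen after seeing the data. Leaving out 1 library at a time gave 8796 to 9221 called genes, 17 to 19 members higher in the embryonic and 15 to 18 in the adult cells, a median of -0.13 to 0.03, and 29 to 34 and 8 to 10 wider genes. Chac1 lost its call under limma-voom (adjusted p = 0.0594). With the replicate number as a block, 8848 genes, 18 members higher in the embryonic and 16 in the adult cells, and 32 and 8 wider genes were called. Deviations of same-numbered libraries correlated at -0.11, -0.07 and -0.12, so the numbers are not taken as pairs.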
